A study of Mus musculus with 9 samples.

Results

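The genes described here are 34 genes of amino acid supply, one-carbon metabolism and the ATF4 stress response, read in Th17 cultures of 3 genotypes. They were chosen by name: a probe set counted as a member where its annotation carried the symbol, and where a gene had more than 1 such probe set the one with the highest mean was used. On the arrays 33 of the 34 were measured, out of 22180 genes named by the probe annotation. Pycr1, an enzyme of proline synthesis, had no probe set under its own symbol alone and has no value here. By role the measured members fell into 10 factors and sensors of the stress response (Atf4, Ddit3, Trib3, Ddit4, Chac1, Nupr1, Ppp1r15a, Eif2ak3, Eif2ak4, Vldlr), 8 serine and one-carbon enzymes (Phgdh, Psat1, Psph, Shmt1, Shmt2, Mthfd2, Mthfd1l, Aldh1l2), 6 further amino acid enzymes (Asns, Cth, Cbs, Aldh18a1, Got1, Gpt2) and 9 amino acid transporters (Slc7a1, Slc7a3, Slc7a5, Slc7a11, Slc3a2, Slc38a1, Slc38a2, Slc1a4, Slc1a5).

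The study compared Th17 cells of WT mice with cells lacking SRG3 (encoded by Smarcc1), one of the core proteins of the Swi/Snf chromatin remodeller, and with cells lacking RORgt, the nuclear receptor on which Th17 differentiation depends. RNA from 3 WT, 3 SRG3 cKO (labelled SRG3-deficient) and 3 RORgt KO (labelled RORgt-deficient) cultures was hybridized to GeneChip arrays, 1 array for each culture. All 9 cultures were started from sorted naive splenic CD4+ CD25- CD44low CD62Lhigh T cells and kept for 60 h on plate-bound anti-CD3 and anti-CD28 (each 10 µg/ml) with TGF-β1 (1 ng/ml), IL-6 (30 µg/ml as the labels write it), anti-IL-4 and anti-IFN-γ (each 2 µg/ml). The medium, common to all groups, held 10% serum and 50 µM β-mercaptoethanol. The sample titles number 3 biological replicates for each genotype without saying whether these were separate mice, so a p-value here measures the spread between these arrays. They give neither the Cre driver of the conditional allele nor the ages of the mice. Values are log2 probe set intensities. They are compared between arrays within a gene and not between genes, because probes differ in brightness.

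ATF4 is the transcription factor at the end of the integrated stress response. Kinases that sense amino acid shortage (GCN2, encoded by Eif2ak4) or unfolded protein in the endoplasmic reticulum (PERK, encoded by Eif2ak3) phosphorylate the initiation factor eIF2, which lowers general translation while letting Atf4 mRNA be translated. ATF4 protein, often paired with a C/EBP family partner, then raises transcription of amino acid transporters, of enzymes that make serine, asparagine and proline, and of the mitochondrial enzymes that pass the carbon of serine to folate. Activated T cells take up amino acids heavily and use serine-derived carbon for nucleotides when they divide. Because ATF4 is controlled largely at translation, its mRNA level alone does not measure its activity.

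The sequence that ATF4 and its C/EBP partner are known to bind in target promoters, the C/EBP-ATF response element, was looked for in the members' promoters as the motif TGATGNAA on both strands (TTNCATCA when read on the other strand). Promoters were those of RefSeq on GRCm38.p6, 250 bases before to 50 bases after the transcription start, and were found for 28 of the 34 members. The motif occurred in 9 of these 28 (32.1%), against 1219 of 27025 genes with a promoter in the same table (4.51%). A match describes the letters in this window and is neither a bound site nor a cause. The matches are shown because the motif was more frequent among the members than among all genes. The members were chosen by name partly as genes of the ATF4 response, so this difference is not independent of the choice. Vldlr, Asns, Chac1 and Trib3, whose arrays spread widely within genotypes, each hold it. Ddit4, Slc3a2, Gpt2, Shmt1, Shmt2 and Phgdh, whose spread was also above the 90th percentile of all genes, lack it. Cth, Slc7a3 and Slc1a5, also above it, have no promoter in the table. Each line gives 30 bases on the strand of the gene, 5′ to 3′, with the motif in capitals.
Asns (chr6:7693214-7693243, minus strand): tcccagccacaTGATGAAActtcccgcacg
Chac1 (chr2:119351038-119351067, plus strand): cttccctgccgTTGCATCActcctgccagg
Got1 (chr19:43524689-43524718, minus strand): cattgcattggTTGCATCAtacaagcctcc
Nupr1 (chr7:126625562-126625591, minus strand): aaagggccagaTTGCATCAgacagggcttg
Pycr1 (chr11:120643833-120643862, minus strand): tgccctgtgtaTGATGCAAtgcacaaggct
Slc1a4 (chr11:20332699-20332728, minus strand): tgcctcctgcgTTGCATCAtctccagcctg
Slc7a11, first match (chr3:50443661-50443690, minus strand): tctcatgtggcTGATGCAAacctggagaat
Slc7a11, second match (chr3:50443642-50443671, minus strand): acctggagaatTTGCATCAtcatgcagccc
Trib3 (chr2:152344028-152344057, minus strand): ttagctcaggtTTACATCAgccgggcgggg
Vldlr (chr19:27216809-27216838, plus strand): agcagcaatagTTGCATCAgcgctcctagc
The core word differed among them: Asns held TGATGAAA, Trib3 TTACATCA, and the others TGATGCAA or its reverse complement TTGCATCA. Its place differed too. Counted from the transcription start, the first base of the motif lay at -4 in Slc1a4, -23 in Asns, -193 in Chac1 and -200 in Vldlr, and at 15 in Trib3, within the transcribed part. Slc7a11, the cystine carrier gene, held matches at -66 and -47.

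The whole upstream stretches of Asns and Vldlr are given because these genes had the largest log2 changes of any member between SRG3 cKO and WT. Both run 5′ to 3′ on the gene's strand over the 250 bases before the start, with the motif in capitals.
Asns (chr6:7693210-7693459, minus strand): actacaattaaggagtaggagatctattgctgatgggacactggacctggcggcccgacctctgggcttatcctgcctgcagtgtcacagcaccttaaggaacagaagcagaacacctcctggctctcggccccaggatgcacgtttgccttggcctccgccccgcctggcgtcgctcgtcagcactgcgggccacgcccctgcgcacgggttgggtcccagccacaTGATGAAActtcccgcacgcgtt
Vldlr (chr19:27216770-27217019, plus strand): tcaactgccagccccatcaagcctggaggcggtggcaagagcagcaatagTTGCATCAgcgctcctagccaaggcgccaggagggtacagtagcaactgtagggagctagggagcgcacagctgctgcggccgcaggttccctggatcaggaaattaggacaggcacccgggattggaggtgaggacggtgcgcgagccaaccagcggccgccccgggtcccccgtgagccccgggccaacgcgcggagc
G and C made up 61.6% of the bases of the Asns stretch and 66.4% of the Vldlr stretch. Each held the motif once.

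None of the 33 measured members changed between any genotypes at an adjusted p of 0.05 in limma (Benjamini-Hochberg over all 22180 genes), where 0.523% of all genes were called in SRG3 cKO against WT, 1.04% in RORgt KO against WT and 1.28% in SRG3 cKO against RORgt KO. At an unadjusted p under 0.05 there were 3 members in SRG3 cKO against WT (9.09% of 33, against 11.2% of all genes), 6 in RORgt KO against WT (18.2% against 12.7%) and 5 in the direct comparison (15.2% against 11.1%). Most members were also bounded closely, though a smaller share of them than of all genes. The 95% interval of the log2 change lay wholly between -0.5 and 0.5 for 30 members in SRG3 cKO against WT (90.9%, against 97.9% of all genes). It did so for 29 in RORgt KO against WT (87.9%, against 97.5%) and for 29 in the direct comparison (87.9%, against 97.8%). For these genes a change past 0.5 either way lay outside the interval. The median log2 change over the members was 0.07 in SRG3 cKO against WT, 0.00 in RORgt KO against WT and 0.07 between the knockouts, beside medians over all genes of -0.01, 0.00 and 0.00. Both knockouts are set against the same 3 WT arrays, so their values below are given side by side and not as independent repeats.

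**Figure D1:**
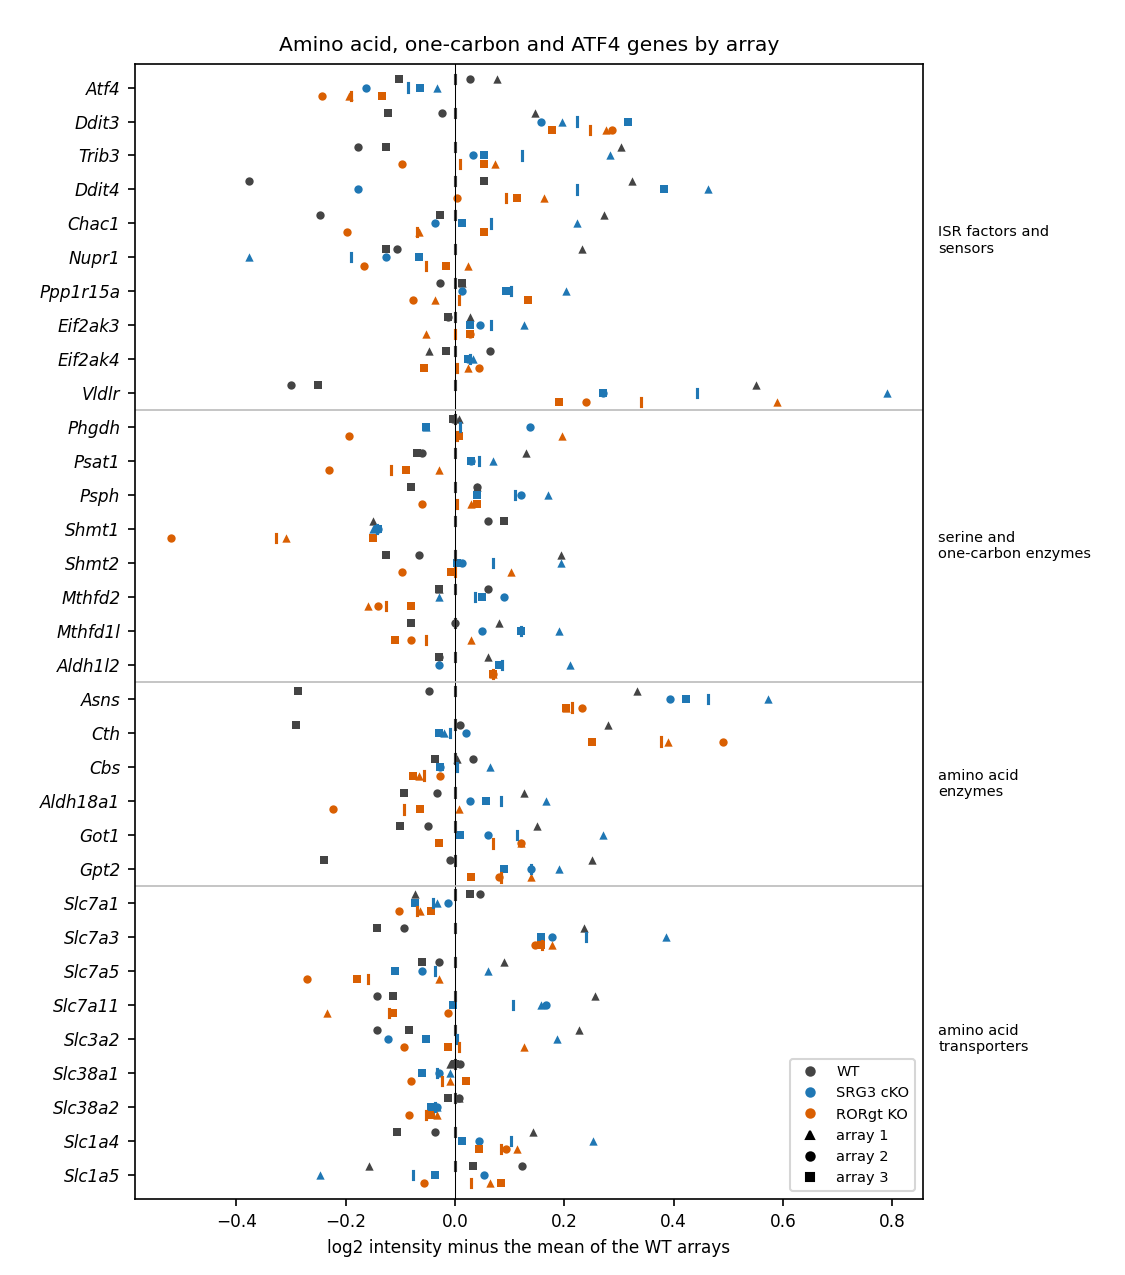
Each point is the log2 intensity of 1 of the 33 measured members on 1 array, minus the mean of the 3 WT arrays (horizontal axis), with the marker shape giving the array's number, the colour the genotype and a vertical bar the mean of each group. Triangles, the arrays numbered 1, sit to the right in many rows, and Vldlr spans from 7.30 to 8.39 on the log2 scale while Slc38a2 spans from 10.67 to 10.76.

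Among the factors of the stress response, Atf4 itself read 10.87, 10.82 and 10.69 in WT, 10.76, 10.63 and 10.73 in SRG3 cKO and 10.60, 10.55 and 10.66 in RORgt KO. Every RORgt KO array was below every WT array, while the SRG3 cKO arrays overlapped both groups. The log2 change in RORgt KO against WT was -0.19 (SE 0.06, 95% interval -0.31 to -0.06, adjusted p = 0.205, n = 3 arrays per group, limma), and in SRG3 cKO against WT -0.09 (interval -0.21 to 0.04).

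Ddit3, which encodes CHOP, a partner and target of ATF4, differed the other way. It read 8.35, 8.18 and 8.08 in WT, 8.40, 8.36 and 8.52 in SRG3 cKO and 8.48, 8.49 and 8.38 in RORgt KO. All 6 knockout arrays were above all 3 WT arrays, the nearest pair being 8.36 and 8.35. The log2 change was 0.22 in SRG3 cKO (SE 0.07, adjusted p = 0.295) and 0.25 in RORgt KO (SE 0.07, adjusted p = 0.194), and -0.03 between the knockouts (interval -0.19 to 0.14). Neither passed the threshold.

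Vldlr, a lipoprotein receptor gene known as an ATF4 target, had the widest range of any member. Its values were 8.15, 7.30 and 7.35 in WT, 8.39, 7.87 and 7.87 in SRG3 cKO and 8.19, 7.84 and 7.79 in RORgt KO. In each genotype the array numbered 1 stood apart above the other 2, and the WT array numbered 1 was above 4 of the 6 knockout arrays. The log2 changes of 0.45 in SRG3 cKO and 0.34 in RORgt KO therefore had wide intervals, -0.06 to 0.96 and -0.17 to 0.85 (adjusted p = 0.51 and 0.589). Ddit4, an inhibitor of mTORC1 signalling, was the next most scattered, at 9.69, 8.99 and 9.42 in WT, 9.83, 9.19 and 9.75 in SRG3 cKO and 9.53, 9.37 and 9.48 in RORgt KO. In all 3 genotypes array 2 was lowest and array 1 highest, and the groups overlapped (0.22 in SRG3 cKO against WT, interval -0.20 to 0.65). With the replicate number as a block the SE of that value was 0.10 in place of 0.19 (adjusted p = 0.381). Without the WT array numbered 2 it was 0.03, and without the SRG3 cKO array numbered 2 it was 0.42.

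The other 6 genes of this role gave smaller values. The pseudokinase gene Trib3, the glutathione-degrading enzyme gene Chac1 and the stress-induced cofactor gene Nupr1 had log2 changes against WT of 0.12, 0.06 and -0.19 in SRG3 cKO and of 0.01, -0.07 and -0.05 in RORgt KO, all with intervals across 0. Ppp1r15a, which encodes the regulatory subunit that reverses eIF2 phosphorylation, was 0.10 higher in SRG3 cKO (interval -0.04 to 0.24) and 0.00 in RORgt KO. The kinase genes were tightly measured: Eif2ak3 gave 0.07 and 0.00, and Eif2ak4 0.03 and 0.00, with every bound within 0.16 of 0.

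The serine pathway begins with Phgdh, whose product diverts the glycolytic intermediate 3-phosphoglycerate. It read 8.96, 8.95 and 8.95 in WT, 8.90, 9.09 and 8.90 in SRG3 cKO and 9.15, 8.76 and 8.96 in RORgt KO, with group means of 8.95 to 8.97. Psat1, the next enzyme, read 10.35, 10.16 and 10.15 in WT, 10.29, 10.25 and 10.25 in SRG3 cKO and 10.19, 9.99 and 10.13 in RORgt KO. All SRG3 cKO arrays of Psat1 were above all RORgt KO arrays (log2 difference 0.16, SE 0.07, adjusted p = 0.391, limma), and the WT arrays overlapped both. Psph, the last enzyme of the path, was 0.11 higher in SRG3 cKO than in WT (interval -0.01 to 0.22) and equal in RORgt KO (0.00, interval -0.12 to 0.12).

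Serine hydroxymethyltransferase passes the carbon of serine to folate, in the cytosol as Shmt1 and in mitochondria as Shmt2. Shmt1 read 9.49, 9.70 and 9.73 in WT, 9.49, 9.50 and 9.50 in SRG3 cKO and 9.33, 9.12 and 9.49 in RORgt KO. The RORgt KO arrays lay below the WT arrays without overlap, though the highest of the former and the lowest of the latter both round to 9.49. The log2 change of -0.33 (SE 0.09, interval -0.53 to -0.13, adjusted p = 0.161) had the lowest adjusted p of any member in that comparison, and SRG3 cKO lay between at -0.14 against WT (interval -0.35 to 0.06). Shmt2 gave 0.07 in SRG3 cKO and 0.00 in RORgt KO (intervals -0.13 to 0.27 and -0.20 to 0.20).

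In the mitochondrial folate path, Mthfd2 carries the next steps and is induced strongly in dividing cells. It read 10.49, 10.58 and 10.49 in WT, 10.49, 10.61 and 10.57 in SRG3 cKO and 10.36, 10.38 and 10.44 in RORgt KO. Every RORgt KO array was below every array of the other genotypes. The log2 change was -0.13 in RORgt KO against WT (SE 0.05, adjusted p = 0.288) and 0.16 in SRG3 cKO against RORgt KO (SE 0.05, adjusted p = 0.204). Mthfd1l, which releases formate, was likewise 0.17 higher in SRG3 cKO than in RORgt KO with no overlap (SE 0.06, adjusted p = 0.268) and gave 0.12 and -0.06 against WT. Aldh1l2, a mitochondrial formyl-folate dehydrogenase gene, had group means of 6.81 to 6.90, below the median of all values on the arrays (7.13). Over the role as a whole, 8 of 8 genes had a higher mean in SRG3 cKO than in RORgt KO, from 0.01 to 0.18, with a median of 0.13. Of these 8, 3 (Psat1, Mthfd2 and Mthfd1l) had an unadjusted p under 0.05, and none passed after adjustment. Of all genes 49.3% had the higher mean in SRG3 cKO and 11.1% an unadjusted p under 0.05. The RORgt KO array numbered 2 was the lowest of its group for 5 of the 8 and above the group mean for 0, and without it 7 of 8 had the higher mean in SRG3 cKO, 2 at an unadjusted p under 0.05, with a median of 0.08. The difference of Shmt1 between the knockouts was 0.18 with all arrays and 0.09 without that array.

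Among the other amino acid enzymes, Asns, which makes asparagine, had the largest change of any member between SRG3 cKO and WT. Its values were 9.81, 9.43 and 9.19 in WT, 10.05, 9.87 and 9.90 in SRG3 cKO and 9.68, 9.71 and 9.68 in RORgt KO. The SRG3 cKO arrays were all above the WT arrays and above the RORgt KO arrays, with the WT array numbered 1 (9.81) just under the lowest of them (9.87). SRG3 cKO exceeded WT by 0.47 (1.38-fold, SE 0.13, interval 0.18 to 0.75), with an unadjusted p of 0.00432 and an adjusted p of 0.195 (limma). RORgt KO exceeded WT by 0.21 (interval -0.07 to 0.49), and SRG3 cKO exceeded RORgt KO by 0.25 (interval -0.03 to 0.53).

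Cth, the enzyme that makes cysteine from cystathionine, stood out in RORgt KO instead. It read 8.85, 8.58 and 8.28 in WT, 8.55, 8.59 and 8.54 in SRG3 cKO and 8.96, 9.06 and 8.82 in RORgt KO. The RORgt KO arrays were above all SRG3 cKO arrays and overlapped only the WT array numbered 1. The log2 change was 0.38 in RORgt KO against WT (1.30-fold, SE 0.12, interval 0.11 to 0.64, adjusted p = 0.226) and -0.39 in SRG3 cKO against RORgt KO (SE 0.12, interval -0.66 to -0.12, adjusted p = 0.228), beside -0.01 in SRG3 cKO against WT. Cbs, the enzyme just before it in the same path, was below the array median in every group (7.02 to 7.08) and gave 0.01 and -0.05 against WT.

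Aldh18a1, which starts proline synthesis, read 10.25, 10.09 and 10.03 in WT, 10.29, 10.15 and 10.18 in SRG3 cKO and 10.13, 9.90 and 10.06 in RORgt KO. The knockouts did not overlap, with SRG3 cKO 0.18 higher (SE 0.07, adjusted p = 0.417), and WT overlapped both. Without the RORgt KO array numbered 2, the lowest of the 9, the difference was 0.11. The transaminase genes Got1 and Gpt2 gave 0.11 and 0.14 in SRG3 cKO and 0.07 and 0.08 in RORgt KO against WT, with all 4 intervals across 0.

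The 9 transporter genes had median log2 changes of -0.03 in SRG3 cKO against WT, -0.03 in RORgt KO against WT and 0.02 between the knockouts. Slc7a5 is the light chain of the main carrier of large neutral amino acids in activated T cells. It read 11.32, 11.20 and 11.17 in WT, 11.29, 11.17 and 11.12 in SRG3 cKO and 11.20, 10.96 and 11.05 in RORgt KO. Its RORgt KO arrays overlapped the WT arrays in 1 array, and the log2 change was -0.16 (SE 0.07, adjusted p = 0.388). Slc3a2, the heavy chain it pairs with, read 10.80, 10.43 and 10.49 in WT, 10.76, 10.45 and 10.52 in SRG3 cKO and 10.70, 10.48 and 10.56 in RORgt KO. The 3 group means of Slc3a2 were all 10.58, and in each genotype array 1 was highest and array 2 lowest.

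Slc7a3, a cationic amino acid carrier gene, read 8.08, 7.75 and 7.70 in WT, 8.23, 8.02 and 8.00 in SRG3 cKO and 8.02, 7.99 and 8.00 in RORgt KO. SRG3 cKO exceeded WT by 0.24 (SE 0.10, interval 0.02 to 0.45, adjusted p = 0.399), with the WT array numbered 1 inside the range of the knockout arrays. Slc7a11, the cystine carrier gene, read 5.53, 5.13 and 5.16 in WT, 5.43, 5.44 and 5.27 in SRG3 cKO and 5.04, 5.26 and 5.16 in RORgt KO. These levels lie below the 25th percentile of all values (6.12), and a second probe set of the gene gave log2 changes of 0.02, 0.04 and -0.02 where the one used gave 0.11, -0.12 and 0.23. The 2 probe sets of Slc1a5, the glutamine carrier gene, gave -0.08 and 0.01 in SRG3 cKO against WT and 0.03 and 0.11 in RORgt KO.

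The remaining carriers were close to level. Slc38a2, a glutamine and small neutral amino acid carrier gene that amino acid shortage is known to induce, read 10.76, 10.76 and 10.74 in WT, 10.72, 10.72 and 10.71 in SRG3 cKO and 10.72, 10.67 and 10.71 in RORgt KO. Every knockout array was below every WT array, with log2 changes of -0.03 in SRG3 cKO (interval -0.11 to 0.04, adjusted p = 0.758) and -0.05 in RORgt KO (interval -0.12 to 0.03, adjusted p = 0.608). Slc38a1 gave -0.03 in both. Slc7a1, the arginine and lysine carrier gene, gave -0.04 and -0.07, and Slc1a4, a neutral amino acid carrier gene, 0.10 and 0.08, all with intervals across 0.

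**Figure D2:**
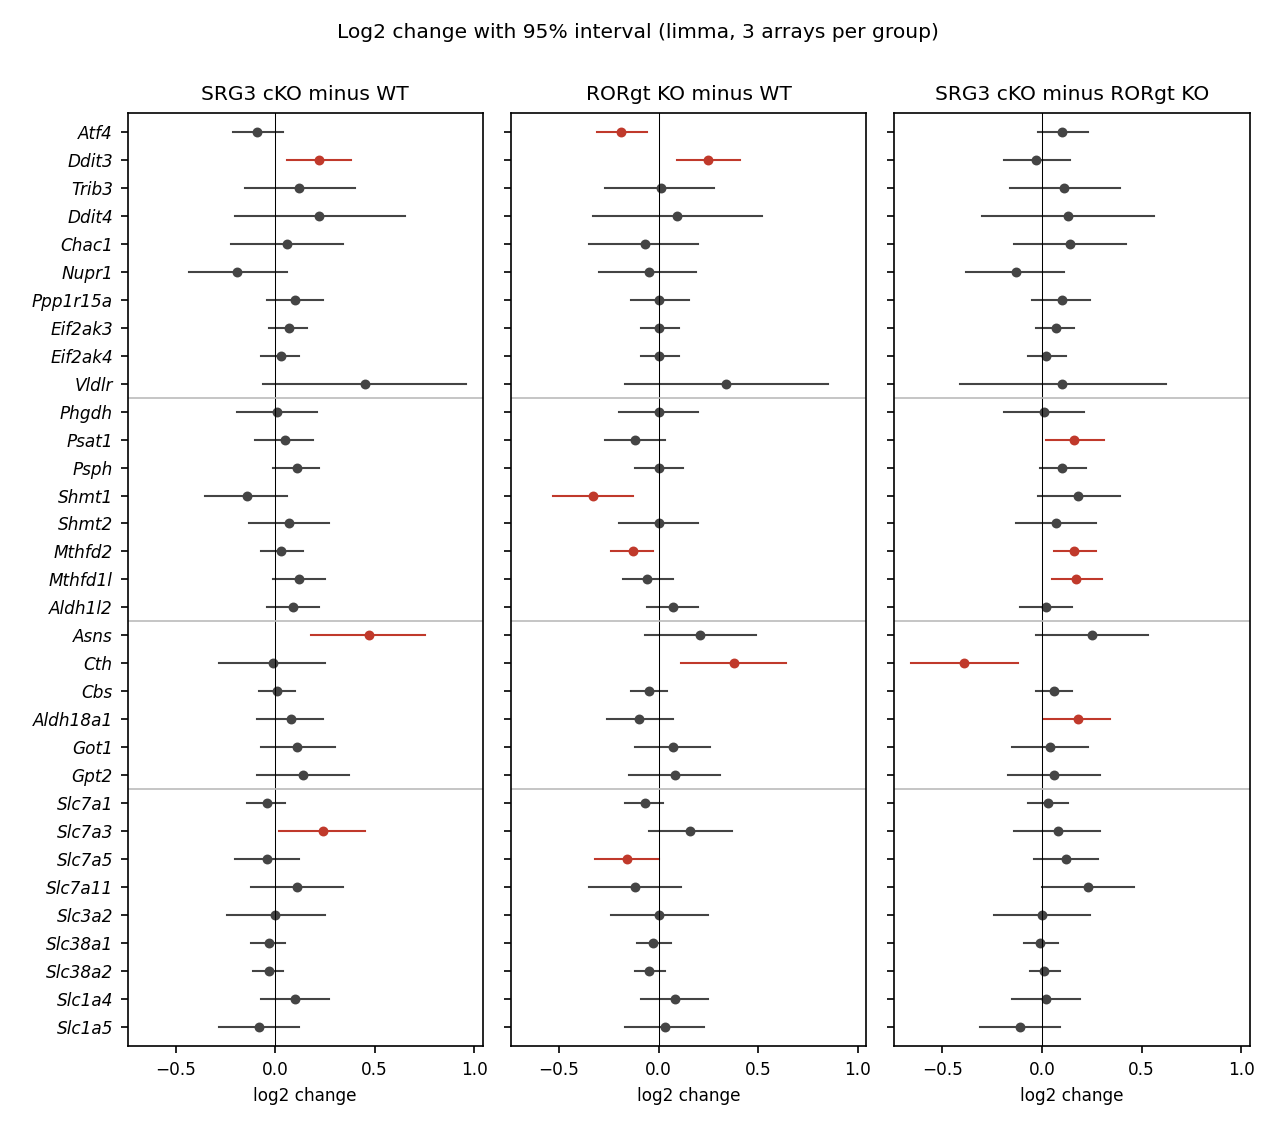
Log2 change of each of the 33 members (points) with its 95% interval from limma (lines) for the 3 comparisons, 3 arrays per group, with red marking an unadjusted p under 0.05. The red members number 3, 6 and 5 from left to right, and none had an adjusted p of 0.05 or less.

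Counted by overlap, the arrays of the compared groups were fully apart for 3 members in SRG3 cKO against WT (Asns, Ddit3, Slc38a2), where 13.6% of all genes were. They were apart for 6 in RORgt KO against WT (Aldh1l2, Atf4, Ddit3, Mthfd2, Shmt1, Slc38a2), where 14.3% of all genes were, and for 7 in the direct comparison (Aldh18a1, Asns, Cth, Mthfd1l, Mthfd2, Psat1, Slc7a11), where 14.6% were. As shares of 33 these are 9.09%, 18.2% and 21.2%. Slc7a11 is among the 7 by the probe set used, while the arrays of its second probe set overlapped. The mean was above that of the other group for 24 of 33 members in SRG3 cKO against WT (72.7%, against 46.4% of all genes), for 17 in RORgt KO against WT (51.5%, against 48.4%) and for 27 in SRG3 cKO against RORgt KO (81.8%, against 49.3%). Ppp1r15a, Eif2ak3, Eif2ak4, Psph and Slc3a2 count among the 17 at 0.00. Without the WT array numbered 3 the counts against WT were 22 and 11, and without that numbered 1 they were 26 and 20. Without the RORgt KO array numbered 2 the 27 became 25 (all genes 50%).

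The members differed more between arrays of the same genotype than most genes did. Their pooled SD within genotypes was above the 90th percentile of all genes (0.13 on the log2 scale) for 15 of 33, or 45.5%, where 10% of all genes are so by construction. Vldlr stood at the 99.9th percentile, Ddit4 at 99.7, Asns at 97.7, Chac1 at 97.6, Trib3 at 97.4 and Cth at 97.0. Others were below the median gene: the small neutral amino acid carriers Slc38a2 and Slc38a1 stood at 1.17 and 7.34, Cbs at 12.9, the kinase genes Eif2ak3 and Eif2ak4 at 19.2 and 19.5, Slc7a1 at 20.9, Mthfd2 at 31.0 and Psph at 45.3. This spread, and the order of arrays in it, was looked at after the values had been seen and is given as a description with no test.

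The spread had a common order. The WT array numbered 1 was the highest of its group for 24 of 33 members (72.7%, against 38.7% of all genes), the SRG3 cKO array numbered 1 for 23 (69.7%, against 41.0%) and the RORgt KO array numbered 1 for 16 (48.5%, against 36.3%). The WT array numbered 3 was highest for 1 member, and was the lowest for 19 (57.6%, against 28.8% of all genes). The RORgt KO array numbered 2 was the lowest of its group for 19 as well (57.6%, against 33.8%). For 13 members (39.4%) the array numbered 1 was the highest in all 3 genotypes, which held for 2161 of all genes (9.74%). These were Aldh18a1, Ddit4, Got1, Gpt2, Mthfd1l, Psat1, Shmt2, Slc1a4, Slc3a2, Slc7a3, Slc7a5, Trib3 and Vldlr, which come from every role. The count was 14 after quantile normalization or after centring each array on its median, where all genes gave 9.06% and 9.16%.

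**Figure D3:**
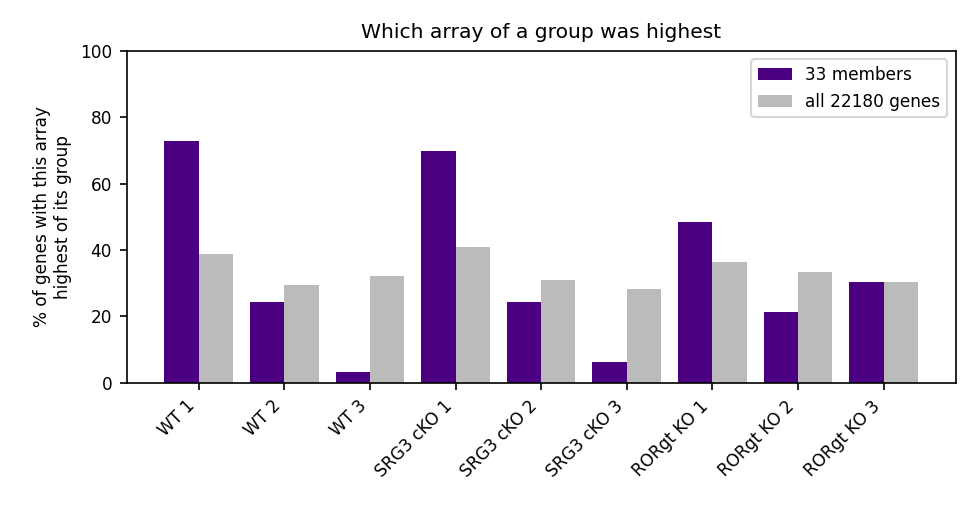
Share of genes (percent, vertical axis) for which each of the 9 arrays (horizontal axis) was the highest of its 3-array group, for the 33 members (purple) and all 22180 genes (grey). The purple bars of WT array 1 (72.7%) and SRG3 cKO array 1 (69.7%) are far above their grey neighbours (38.7% and 41.0%), and that of WT array 3 is near 0 (3.03%).

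In size the difference was greatest in WT. The WT array numbered 1 exceeded the mean of the other WT arrays by 0.83 for Vldlr, 0.49 for Asns, 0.48 for Ddit4, 0.46 for Trib3, 0.42 for Cth and 0.41 for Chac1. For 11 of 33 members (33.3%) that excess was at least 0.3, against 1.64% of all genes, while the SRG3 cKO array numbered 1 had such an excess for 2 members (Vldlr at 0.52 and Ddit4 at 0.36) and the RORgt KO array numbered 1 for 1 (Vldlr at 0.37). The order was not general. Array 1 minus the mean of the others was 0.35 in WT but -0.28 in SRG3 cKO for Nupr1, and -0.23 and -0.26 for the glutamine carrier gene Slc1a5. Shmt1, Mthfd2, Slc7a1 and Slc1a5 were highest on array 1 in none of the genotypes. For Slc1a5 this depended on the probe set in WT. Its second probe set read 8.11, 7.97 and 8.00 there, highest on array 1. In SRG3 cKO that probe set read 7.89, 8.11 and 8.11, and in RORgt KO 8.11, 8.14 and 8.17.

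**Figure D4:**
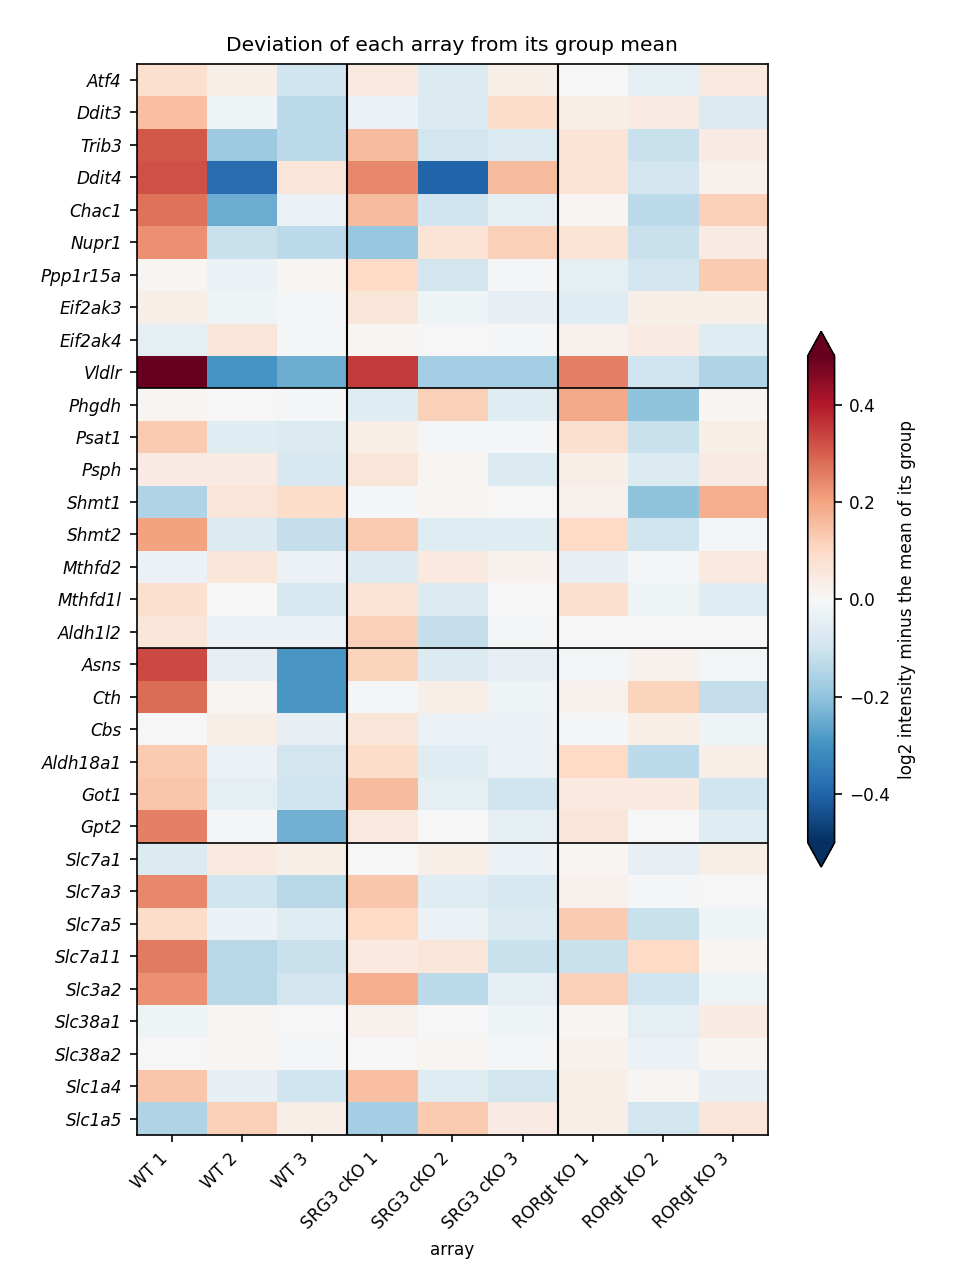
Deviation of each array (columns) from the mean of its own group for the 33 members (rows, in the order of their roles), in log2 units with red above and blue below the group mean and colours saturating at 0.5. The columns of arrays numbered 1 are mostly red in WT and SRG3 cKO and paler in RORgt KO, and the row of Slc1a5 is blue there in WT and SRG3 cKO.

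Members with and without TGATGNAA in the promoter are set side by side here, with no test. Of the 8 measured ones (Asns, Chac1, Got1, Nupr1, Slc1a4, Slc7a11, Trib3 and Vldlr), 8 were highest on the WT array numbered 1, 6 on the SRG3 cKO array numbered 1 and 4 on the RORgt KO array numbered 1. The median excess of the WT array over the other WT arrays was 0.40 for these, from 0.21 to 0.83. Slc7a11 counts among the 8 through a probe set below the 25th percentile of all values (6.12). Its second probe set read 5.12, 5.17 and 5.09 in WT and was not highest on array 1. The 19 measured members whose promoters lacked the motif had a median of 0.06, from -0.22 to 0.48, and of them 11 were highest on that array, 13 on the SRG3 cKO array numbered 1 and 9 on the RORgt KO array numbered 1. The 6 members with no promoter in the table had a median of 0.12, with 4, 4 and 2 highest on these arrays. The sets overlapped in range: Got1 and Slc1a4, which hold the motif, had an excess of 0.22 and 0.21 in WT, below the 0.48 of Ddit4, 0.38 of Gpt2 and 0.34 of Slc3a2, which lack it. Between genotypes the sets were close, with medians of 0.11 and 0.05 in SRG3 cKO against WT and of 0.04 and 0.00 in RORgt KO against WT.

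Genes outside the 34 were mixed. Of 24 measured genes of a list of other stress response and ATF4-linked genes, 15 (62.5%) were highest on the WT array numbered 1, and Sesn2, a sestrin gene induced by amino acid shortage, exceeded the other arrays by 0.44, 0.51 and 0.50 on the arrays numbered 1 of WT, SRG3 cKO and RORgt KO. Cdkn1a, the p21 gene known chiefly as a p53 target, did so by 0.91, 0.85 and 0.65. Of 17 measured cytosolic aminoacyl-tRNA synthetase genes 9 (52.9%) were highest on the WT array numbered 1, and of 26 other folate, methionine cycle and nucleotide carbon genes 4 (15.4%) were, against the 38.7% of all genes. The shares in the other lists were 57.1% of 21 amino acid sensing and mTORC1 genes, 40.9% of 22 other glutamine, aspartate, proline, arginine and branched-chain enzymes, 35.0% of 20 other amino acid transporters and 29.4% of 17 unfolded protein response genes. In the same order these lists gave 42.9%, 50%, 60% and 58.8% on the SRG3 cKO array numbered 1 (all genes 41%). They gave 38.1%, 54.5%, 55% and 47.1% on the RORgt KO array numbered 1 (all genes 36.3%). For the stress response, synthetase and folate lists the shares were 54.2%, 47.1% and 34.6% on that SRG3 cKO array. On that RORgt KO array they were 62.5%, 35.3% and 23.1%. The T cell genes Cd3e and Cd4, named after their values were seen, were also highest on the array numbered 1 in each genotype, Cd3e at 11.59 against 11.20 and 11.31 in WT and Cd4 at 11.50 against 11.09 and 11.12. Not all T cell genes did so. Of the 6 measured T helper markers, 3 were highest and 2 lowest on the WT array numbered 1, and Cd28 read 10.98 there against 11.04 and 11.08. In each knockout 4 of the 6 were highest and 0 lowest on the array numbered 1. Across all genes, the first principal component (28.8% of the variance) placed the WT array numbered 1 at -1.38 and the others at -10.5 and -11.8, so this array also stood nearer to the knockouts on that axis. The array medians were 7.12 to 7.14. What the arrays numbered 1 share beyond the number is not given in the labels, and its part in these results was not tested.

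Leaving out the WT array numbered 1 brought 1 member past the threshold in each comparison with WT, where 0.392% of all genes were called in SRG3 cKO and 1.45% in RORgt KO. Asns then differed between SRG3 cKO and WT by 0.63 (SE 0.08, adjusted p = 0.0226), against 0.47 with all 9 arrays. Cth then differed between RORgt KO and WT by 0.52 (SE 0.09, adjusted p = 0.0389), against 0.38. Vldlr stood at 0.72 (adjusted p = 0.114) and 0.62 (adjusted p = 0.119), and Asns in RORgt KO at 0.38 (adjusted p = 0.0592). In each of these comparisons 10 members (30.3%) then had an unadjusted p under 0.05, against 14.1% of all genes in SRG3 cKO and 16% in RORgt KO. Without that array only 2 WT arrays remain, and it was the array that stood apart in these genes that was left out, so these calls rest on the choice. With the 3 arrays numbered 1 all left out, Vldlr differed by 0.49 in RORgt KO against WT (SE 0.04, adjusted p = 0.042) and by 0.55 in SRG3 cKO against WT (SE 0.04, adjusted p = 0.148), and Asns by 0.57 in SRG3 cKO (adjusted p = 0.199). Of all genes 25 (0.113%) and 1 (0.00451%) were called in these fits.

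Leaving out other single arrays moved these values either way. Without the SRG3 cKO array numbered 2, Asns in SRG3 cKO against WT stood at 0.5 and Vldlr at 0.53, against 0.47 and 0.45 with all arrays. The values that follow moved toward 0. Without the WT array numbered 3, which was the lowest WT array for 19 members, Asns stood at 0.32 in SRG3 cKO (adjusted p = 0.426) and at 0.07 in RORgt KO, Cth in RORgt KO at 0.24 (adjusted p = 0.444) and Vldlr in RORgt KO at 0.22. No member was called in that fit, where 0.104% of all genes were called in SRG3 cKO and 0.293% in RORgt KO. At an unadjusted p under 0.05 there were 2 members in SRG3 cKO (6.06%, against 8.03% of all genes) and 6 in RORgt KO (18.2%, against 9.54%). Vldlr in SRG3 cKO stood at 0.27 without the SRG3 cKO array numbered 1. In RORgt KO it stood at 0.19 without the WT array numbered 2 and at 0.22 without the RORgt KO array numbered 1. Slc7a5 in RORgt KO stood at -0.10 without the RORgt KO array numbered 2.

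**Figure D5:**
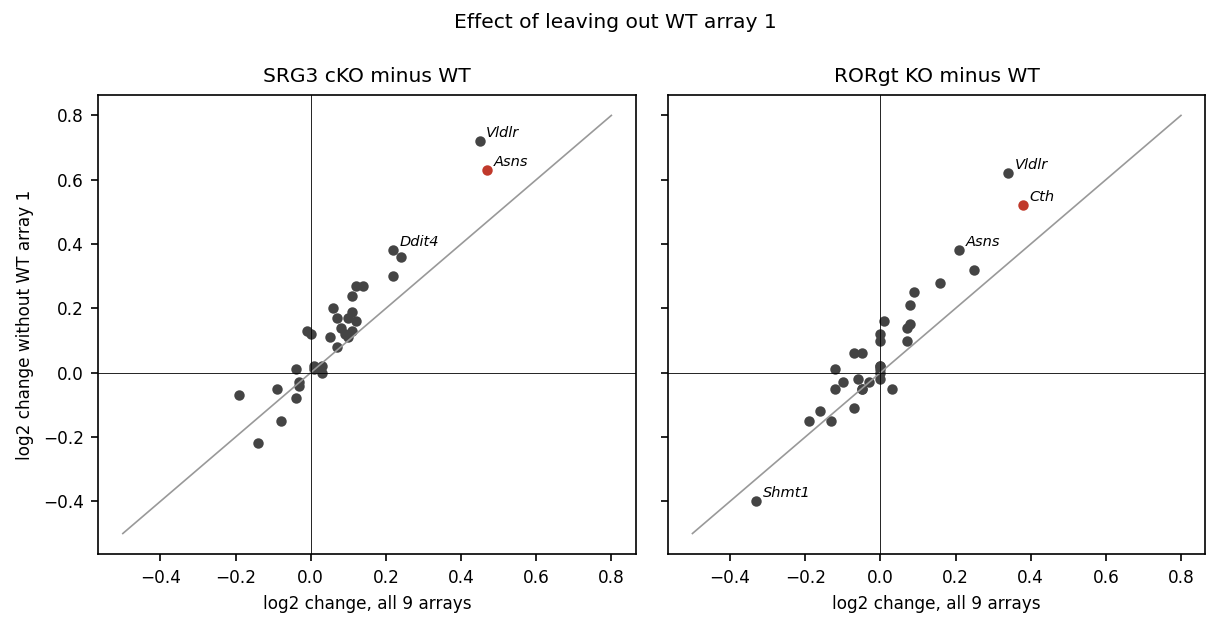
Log2 change of the 33 members with all 9 arrays (horizontal axis) against the change without WT array 1 (vertical axis), for SRG3 cKO minus WT (left) and RORgt KO minus WT (right), with the line of equal values and red marking an adjusted p of 0.05 or less without that array. Most points lie above the line, Asns moves from 0.47 to 0.63 on the left and Cth from 0.38 to 0.52 on the right, and Shmt1 moves from -0.33 to -0.40.

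With the replicate number as a block in the model, which takes out what arrays of the same number have in common, no member passed in any comparison. The SE of Vldlr went from 0.23 to 0.09 and that of Asns from 0.13 to 0.10, and in SRG3 cKO against WT their adjusted p was 0.0656 and 0.0884. All genes then gave 195 calls in place of 116 there, 374 in place of 230 in RORgt KO against WT and 368 in place of 283 in the direct comparison.

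Other genes of the same metabolism were read from 7 lists of 163 genes, of which 147 were measured. No cytosolic aminoacyl-tRNA synthetase gene (17 measured) and no gene of amino acid sensing and mTORC1 (21 measured) was called in any comparison. Of the 17 synthetase genes, 15 had a higher mean in SRG3 cKO than in RORgt KO, 9 of them at an unadjusted p under 0.05, with a median of 0.09, where all genes gave 49.3% and 11.1%. The RORgt KO array numbered 2 was the lowest of its group for 12 of the 17 (70.6%, against 33.8% of all genes), and without it the counts were 14 and 5 and the median 0.07. Their promoters held the motif in 5 of 13 (38.5%). In RORgt KO against WT, 10 of the 26 other folate, methionine cycle and nucleotide carbon genes were lower and 1 higher at an unadjusted p under 0.05, with a median of -0.08, and none was called. Of all genes 6.64% were lower and 6.08% higher at that p. The RORgt KO array numbered 2 was the lowest of its group for 20 of the 26 (76.9%), and without it 3 were lower and 0 higher, with a median of -0.05. Its part in these counts beyond that was not tested.

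In the other lists the calls were single genes. Ahcyl2, a relative of the enzyme that breaks down S-adenosylhomocysteine, read 8.58, 8.59 and 8.55 in WT, 9.20, 9.23 and 9.11 in SRG3 cKO and 8.64, 8.58 and 8.57 in RORgt KO. It rose in SRG3 cKO by 0.61 against WT (SE 0.04, adjusted p = 0.000664) and by 0.59 against RORgt KO (adjusted p = 0.000352), with no overlap of arrays. Glud1, the glutamate dehydrogenase gene, read 10.97, 10.76 and 10.84 in WT, 11.49, 11.35 and 11.41 in SRG3 cKO and 11.14, 11.23 and 11.08 in RORgt KO. It rose in SRG3 cKO by 0.56 (SE 0.06, adjusted p = 0.00867) and was 0.30 higher in RORgt KO (adjusted p = 0.0717).

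Sesn3, a sestrin gene that restrains mTORC1, rose in both knockouts, from 10.09 to 10.12 in WT to 10.70 to 10.94 in SRG3 cKO and 10.83 to 10.96 in RORgt KO (log2 changes 0.68 and 0.80, adjusted p = 0.00319 and 0.000497). Slc25a13, the mitochondrial aspartate and glutamate carrier gene, fell in SRG3 cKO by 0.33 against WT (adjusted p = 0.0216) and was lower than in RORgt KO by a log2 difference of -0.26 (adjusted p = 0.0286). The endoplasmic reticulum chaperone gene Hyou1 fell in RORgt KO by 0.32 (adjusted p = 0.0318) and gave -0.25 in SRG3 cKO (adjusted p = 0.103). Odc1, which starts polyamine synthesis, was 0.29 higher in SRG3 cKO than in RORgt KO (adjusted p = 0.0467). These 6 genes are the only ones of the 147 called in any of the 3 comparisons.

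The targeted gene Smarcc1 read 10.13 to 10.39 in WT, 8.47 to 8.79 in SRG3 cKO and 10.04 to 10.19 in RORgt KO (SRG3 cKO against WT -1.65, adjusted p = 0.000207). All 6 measured T helper markers were above the array median in every group, and of 6 Th17 markers 3 fell in SRG3 cKO (Il17a, Il17f and Il23r) while in RORgt KO 5 fell and 1 rose. Markers of NK cells (3 genes, summed log2 level 17.89 to 18.61), myeloid cells (5 genes, 32.53 to 32.94) and erythroid cells (1 gene, 6.62 to 6.89) had means below the array median in every group. Of the 2 CD8 T cell markers 0 were below the array median in any group, and they summed to 15.95 to 16.14. Of 4 B cell markers 1 was below the array median, and their summed level was 28.81 to 30.07 in WT, 29.09 to 29.43 in SRG3 cKO and 29.32 to 29.84 in RORgt KO. No marker gene of these other cell types was called, and in such bulk RNA fewer cells of a type and less RNA per cell cannot be told apart.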

How the data were processed

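Gene expression was read on 9 GeneChip arrays of Th17 cultures, 3 per genotype, grouped by the series' labels. The deposited values were taken to be log2 probe set intensities from their range. The sources used here do not state the background correction, probe summary or normalization. No sample column was left unused (0). Of 41345 probe sets, 23521 carried 1 gene symbol and were used, 1814 carried several and 16010 none. Symbols were updated by gene ID through the RefSeq table of GRCm38.p6 (23328 matched), and the probe set with the highest mean stood for each of the 1082 genes with more than 1, giving 22180 genes.

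All genes were fitted together with limma 3.58.1 in R 4.3.3 (group means, moderated variances, two-sided), and p-values were adjusted within each comparison by Benjamini-Hochberg with a threshold of 0.05. The code was tested on simulated data. The number of arrays limits the precision. The members, the 7 lists of other pathway genes and the 7 lists of cell markers were chosen with earlier results of these data known. Values in every array are given for members past the threshold, for the 5 members with the largest absolute change in each comparison and for Atf4, Ddit3, Mthfd2, Asns, Psat1, Slc7a5 and Slc3a2. Phgdh and Slc38a2 were given in full as well, after their values were seen. Genes of other lists are named where they passed, and Sesn2 and Cdkn1a were named after their values were seen.

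Whether the replicate numbers pair the arrays was checked by the correlation, over 22180 genes, of the deviations of same-numbered arrays from their group means. It was 0.287, 0.186 and 0.116 for SRG3 cKO and WT. These met the rule for pairing, so block values are given for them, while the main fit has no block. Over all genes the correlation was 0.215, -0.00527 and 0.186 for RORgt KO and WT and 0.223, -0.00544 and 0.137 for the knockouts, which did not meet the rule. Over the members it was 0.36, 0.202 and 0.639 and 0.289, 0.0788 and 0.292. Block counts for these comparisons are given only beside the main ones. Promoters were searched in the RefSeq table for TGATGNAA on both strands, counting a gene once.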

Additional observations from a re-analysis of the deposited data

How the results depend on the processing

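The counts of called members were recomputed under quantile normalization, centring on array medians, a filter on genes below the 25th percentile, the mean of a gene's probe sets, a trended and robust variance, array weights, only the 6 arrays compared and the replicate block, and stayed at 0 in all 3 comparisons. Leaving out 1 array at a time gave 0 to 1 called members in SRG3 cKO against WT, 0 to 1 in RORgt KO against WT and 0 in the direct comparison. The 1 in each case came without the WT array numbered 1 and was Asns at 0.63 (adjusted p = 0.0226) and Cth at 0.52 (adjusted p = 0.0389); the cause was not tested. Leaving out all arrays numbered 1, an alternative added after seeing the data, gave 1 called member in RORgt KO against WT (Vldlr at 0.49) and 0 in the others. The counts of the lists without the RORgt KO array numbered 2 were also added after seeing the data. The replicate block gave 0 called members in each comparison, and 0 also when fitted to the SRG3 cKO and WT arrays only (added after seeing the data), where the lowest adjusted p was 0.115. Of the log2 changes that were among the 5 largest of a comparison or had an unadjusted p under 0.05 in limma, none turned its direction under any of these. Smaller ones did turn. Without the WT array numbered 1, Cth in SRG3 cKO against WT went from -0.01 to 0.13 and Slc7a5 from -0.04 to 0.01. Slc7a11 in RORgt KO against WT went from -0.12 to 0.01. With 3 arrays per group, the intervals of Vldlr and Ddit4 were the widest among the members and left changes past 0.5 unresolved. The intervals of Asns, Cth and Shmt1 also did so in some comparisons. They reached 0.75 for Asns in SRG3 cKO against WT, and 0.64 for Cth and -0.53 for Shmt1 in RORgt KO against WT. The low intensities of Slc7a11, Aldh1l2 and Cbs limit what their probe sets can show.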
